A study of Mus musculus with 15 samples.

Results

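Transcript levels of genes lying away from chromosome 2, the chromosome of Mertk, were compared between Mertk KO and Mertk WT retinal pigment epithelium (RPE). Members were all genes whose first listed chromosome in the count table was not 2, which gave 42327 of the 46078 genes in the table. Of these, 12369 passed the filter on low counts and were tested, among 13447 tested genes in all, and 29958 were too low. Each genotype had 4 libraries of RPE from female mice at postnatal day 14, with RNA taken from 2 hours after light onset. All libraries share 1 strain label, a mixture of C57BL/6J and the line B6;129-Mertktm1Grl/J, which carries the Mertk knockout allele. The remaining libraries, 3 Bai1 Tg pos and 4 Bai1 Tg neg, carry wild-type Mertk by their titles and served here only as further levels of the same genes. The labels name no promoter for the Bai1 transgene and do not say which Mertk exons are lost. Nothing states that the replicates came from separate animals, so the p-values reflect variation among these libraries alone, which may be technical.

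The RPE is a pigmented epithelium that faces the photoreceptors. It recycles visual pigment, moves ions and water towards the choroid, and each day engulfs the tips that photoreceptor outer segments shed. MERTK is a receptor tyrosine kinase of that engulfment step, bound through bridging proteins such as GAS6 to phosphatidylserine (PtdSer) on the shed membrane. Without it, debris collects beneath the retina and photoreceptors later degenerate. Genes close to a targeted locus are inherited with it, while genes on other chromosomes segregate apart from the allele, so chromosome 2 was set aside. The strain label is a mixture, however, and this step does not remove differences of strain background on other chromosomes. Whether the Mertk KO and Mertk WT libraries differed in strain background there was not tested.

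The 8 Mertk libraries held 9591129 to 18507103 counted fragments each. Levels below are counts scaled to library size with TMM factors (CPM). Mertk itself stood at 155 to 194 CPM in Mertk KO libraries and 234 to 259 CPM in Mertk WT, a sum over all exons that checks the genotype only in part. RPE genes were abundant, with Rpe65 at 4173 to 6581 CPM and Rlbp1 at 4356 to 5119 CPM, although Best1, another RPE marker, was at only 0.346 to 1.81 CPM. Rod transcripts were present too, with Gnat1, the rod transducin subunit, spanning 147.4 to 773.5 CPM. Of the 5 macrophage markers Aif1, Tyrobp and Ptprc were never above 0.346 CPM, C1qa and Cx3cr1 reached 1.66 and 1.11 CPM, and of a longer list of 26 macrophage and microglia genes 20 were too low to test while Csf1r, a receptor gene on it, stood at 631 to 735 CPM. The melanocyte gene Pax3 was at most 0.104 CPM, while Sox10 and Kit, which melanocytes also express, reached 333.5 and 44.6 CPM. In bulk RNA, fewer cells of a type and less RNA per cell cannot be told apart.

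Away from chromosome 2 few genes separated the genotypes, and nearly all of those were lower in Mertk KO. The 11 that fell include genes for a gap junction channel, a subunit of sphingolipid synthesis and a sialic acid enzyme. Others encode a vesicle-priming protein and an immune receptor, and 2900052N01Rik is a long noncoding RNA gene. Apoo-ps, also lower, is a pseudogene whose transcript is found whole in Apoo, and the summed counts of that pair did not pass. The 1 that rose is a gene model with close copies on chromosome 2, the chromosome of Mertk. At an adjusted p under 0.05 (edgeR's quasi-likelihood test, Benjamini-Hochberg adjustment over all 13447 genes), 12 of 12369 genes passed, or 0.097%: 1 rose (0.00808%) and 11 fell (0.0889%). Adjusted over the genes off chromosome 2 alone, 7 of the 12 passed, and Unc13b, Shisal1, Gdpd2, Fhdc1 and 2900052N01Rik did not (adjusted p 0.0542 to 0.09, edgeR). On chromosome 2 the share was 1.67%, 18 of 1078. The 12 genes lay on 11 chromosomes. Every Mertk KO library lay outside the Mertk WT range, on 1 side, for all 12, as it did for 3.27% of all tested genes; the test that chose the 12 favours such genes.

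The bulk of the genes stayed close to 0. The log2 fold change of the tested genes had a median of 0.00, with quartiles of -0.11 and 0.12 and a range from the 5th to the 95th percentile of -0.45 to 0.40, and 49.9% were above 0. An unadjusted p under 0.05 was reached by 645 genes (5.21%), 282 higher (2.28%) and 363 lower (2.93%). Libraries of the groups did not overlap for 404 genes (3.27%), 181 with every Mertk KO library above every Mertk WT library (1.46%) and 223 below (1.8%). The 95% interval of the fold change lay wholly inside 1.5-fold in either direction for 7876 genes (63.7%), here called a narrow interval. That share followed the level: 18.3% of genes from 1 to 10 CPM had a narrow interval, against 88.5% from 10 to 100 CPM and 92.3% from 100 to 1000 CPM. For genes under 1 CPM the share was 0.155%, or 1 of 645, and 0 of those 645 passed with edgeR, although DESeq2 and the edgeR fit without a low-count filter called Pbk, a mitotic kinase gene too low for the main test (0.0473 against 1.31 CPM; adjusted p 0.00122 and 0.000593).

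**Figure D1:**
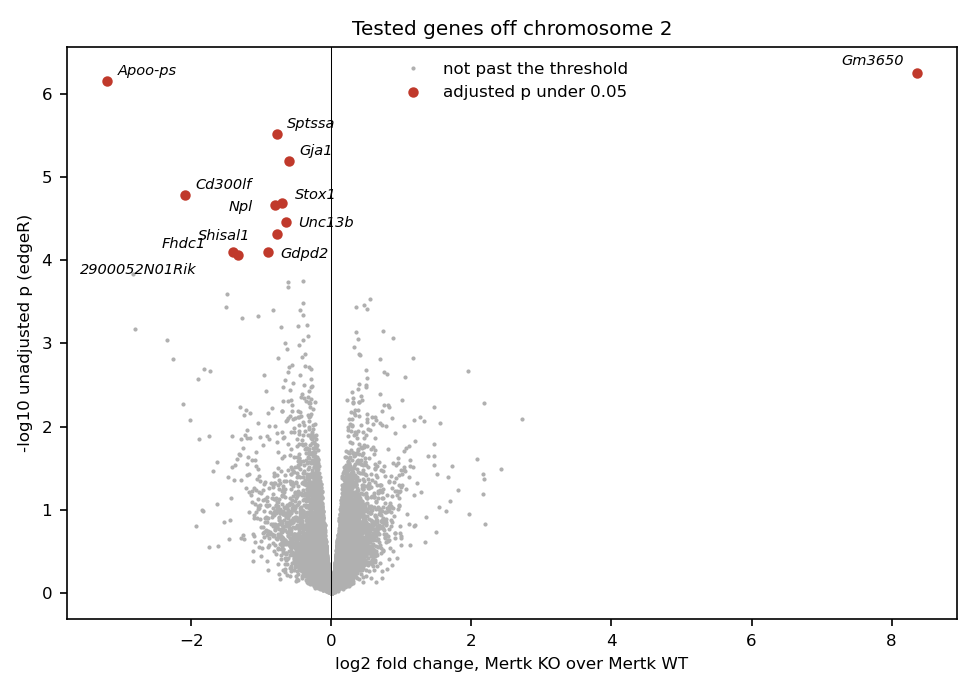
Unadjusted p of edgeR's test as -log10 (y axis) against the log2 fold change, negative where Mertk KO is lower (x axis), each point 1 of the 12369 tested genes off chromosome 2 and red points those with an adjusted p under 0.05. Of the 12 red points 11 lie left of 0; the position of Gm3650 on the x axis is set by the prior count of the fit, since its Mertk WT libraries hold 0 counts.

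The count of 12 rested partly on single libraries. Without Mertk KO 4 the fit called 4 genes, all among the 12, and without Mertk WT 4 it called 7, of which 5 were among the 12; these are the libraries whose first tag number in the labels is 21, where the other Mertk libraries have 17. With the first tag number as a covariate 12 genes passed, 2 higher and 10 lower. Other tools called more or fewer genes off chromosome 2: DESeq2 gave 51 of the 14558 it tested (0.35%; 15 higher, 36 lower), limma-voom with quality weights 10 (0.0808%), and edgeR with all 15 libraries in the fit 24 of 13360 (0.18%). All 12 genes were among the 51 of DESeq2, 9 among those of limma-voom and 11 among those of the 15-library fit.

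Sptssa and Gja1 fell, and both calls held under every alternative tried. Sptssa (chromosome 12, 54645374 to 54656572, minus strand, GRCm38 as in the count table) encodes a small subunit of serine palmitoyltransferase, the enzyme that opens sphingolipid synthesis. Its level in Mertk KO 1 to 4 was 53.3, 48.3, 50.7 and 39.1 CPM, against 78.6, 84.0, 79.8 and 86.0 CPM in Mertk WT 1 to 4. The lowest Mertk WT library stood well above the highest Mertk KO library, and the Bai1 Tg neg libraries, at 60.8 to 72.7 CPM, fell between the groups, while Bai1 Tg pos reached 78.1 to 87.5 CPM. The log2 fold change was -0.78 (SE 0.10, 95% interval -1.00 to -0.57, adjusted p = 0.00407, edgeR), and it stayed between -0.84 and -0.69 under the 20 alternatives. The gene's exons overlap the microRNA gene Mir1892 on the same strand over 80 bases.

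Gja1 (chromosome 10, 56377300 to 56390419, plus strand) encodes connexin 43, which forms gap junction channels between RPE cells. Mertk KO libraries held 791, 811, 755 and 777 CPM, and Mertk WT libraries 1059, 1370.0, 1144 and 1183 CPM. Mertk KO was tightly grouped and all 11 libraries with wild-type Mertk lay above it, Bai1 Tg neg at 1063 to 1145 CPM and Bai1 Tg pos at 1112 to 1250 CPM. The log2 fold change of -0.61 (SE 0.083, 95% interval -0.79 to -0.43, adjusted p = 0.00617, edgeR) kept its call under all 20 alternatives too, the weakest being an adjusted p of 0.0491 without Mertk KO 3.

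Npl and Unc13b also fell. Npl (chromosome 1, 153503015 to 153550045, minus strand) encodes N-acetylneuraminate pyruvate lyase, which breaks down free sialic acid. It stood at 15.0, 13.1, 15.4 and 14.7 CPM in Mertk KO libraries and 23.6, 30.0, 21.9 and 26.4 CPM in Mertk WT (log2 fold change -0.81 by edgeR, SE 0.13, adjusted p = 0.0152). Bai1 Tg neg libraries, at 16.4 to 23.0 CPM, lay above every Mertk KO library and reached into the lower end of Mertk WT. Unc13b (chromosome 4, 43058953 to 43264871, plus strand) encodes a Munc13 protein that primes vesicles for fusion. Its Mertk KO libraries were at 49.4, 52.8, 49.4 and 40.4 CPM and its Mertk WT libraries at 65.9, 84.2, 72.2 and 78.5 CPM, with all 7 Bai1 libraries, at 66.6 to 78.8 CPM, beside Mertk WT. The log2 difference for Unc13b was -0.65 (edgeR SE 0.11, adjusted p = 0.0214). Leaving out Mertk KO 1, KO 2, KO 4 or WT 4 ended the Npl call (adjusted p 0.0535 to 0.0745), and leaving out Mertk KO 1, KO 3, KO 4, WT 3 or WT 4 ended that of Unc13b (0.0639 to 0.0884), as did leaving out both Mertk WT 2 and WT 3, the Mertk WT libraries of highest rod level (0.08).

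The stretches just before the start sites of these 4 genes are shown because the genes fell together on different chromosomes and their upstream letters can be set side by side. They are the 250 bases before the RefSeq start in GRCm38.p6: chr12:54656573-54656822 (minus strand) for Sptssa, chr10:56377050-56377299 (plus) for Gja1, chr1:153549715-153549964 (minus) for Npl and chr4:43058703-43058952 (plus) for Unc13b. Capitals mark CACGTG, a palindrome that MITF and other basic helix-loop-helix factors bind.
Sptssa: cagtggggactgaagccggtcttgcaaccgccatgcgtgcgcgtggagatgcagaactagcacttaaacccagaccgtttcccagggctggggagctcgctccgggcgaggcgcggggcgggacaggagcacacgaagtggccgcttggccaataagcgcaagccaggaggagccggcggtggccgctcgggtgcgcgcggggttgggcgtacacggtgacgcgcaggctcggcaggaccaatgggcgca
Gja1: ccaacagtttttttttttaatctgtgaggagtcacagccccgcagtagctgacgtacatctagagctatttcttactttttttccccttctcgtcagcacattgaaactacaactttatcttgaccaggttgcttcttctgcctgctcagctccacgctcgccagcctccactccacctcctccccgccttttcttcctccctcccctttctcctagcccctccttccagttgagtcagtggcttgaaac
Npl: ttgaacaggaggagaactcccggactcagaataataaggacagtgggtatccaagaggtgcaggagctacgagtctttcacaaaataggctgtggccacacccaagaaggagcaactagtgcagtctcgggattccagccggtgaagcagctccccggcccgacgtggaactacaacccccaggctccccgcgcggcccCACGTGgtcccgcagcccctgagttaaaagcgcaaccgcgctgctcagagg
Unc13b: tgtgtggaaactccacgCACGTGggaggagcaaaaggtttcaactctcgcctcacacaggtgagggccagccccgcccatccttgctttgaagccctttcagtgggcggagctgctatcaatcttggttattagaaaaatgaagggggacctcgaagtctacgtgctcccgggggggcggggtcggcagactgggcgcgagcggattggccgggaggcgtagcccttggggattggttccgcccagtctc
CACGTG began 51 bases before the start of Npl and 233 before that of Unc13b, and windows from 250 bases before to 50 after the start of Sptssa and Gja1 held none. Of the 9 genes past the threshold with such a window these were the 2 that held it. Among 32851 such RefSeq windows 7.15% hold CACGTG. The string CATGTG, a further letter string of MITF, and TAATCC, a homeodomain string that OTX2 and CRX bind, were searched on both strands and were absent from all windows of the 9 genes, where 14.2% and 7.06% of all windows hold them. A match or its absence describes these letters only.

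Stox1, Shisal1 and Gdpd2 made a second group, lower in Mertk KO but with 1 Bai1 library each at or below the highest Mertk KO library. Stox1 (chromosome 10, 62659043 to 62726128, minus strand) encodes a storkhead box protein with a winged-helix domain. Its Mertk KO libraries stood at 40.5, 35.5, 40.3 and 35.3 CPM and its Mertk WT libraries at 72.6, 60.1, 61.1 and 52.0 CPM (log2 fold change -0.70 by edgeR, SE 0.11, adjusted p = 0.0152). The Mertk groups were apart. Yet Bai1 Tg neg, with wild-type Mertk by title, ranged from 40.3 to 51.3 CPM and so did not reach the Mertk WT range. Shisal1 (chromosome 15, 84379203 to 84447097, minus strand), a member of the Shisa-like membrane protein family, was at 65.7, 62.3, 78.5 and 50.03 CPM in Mertk KO libraries and 116, 107, 94.5 and 120 CPM in Mertk WT (-0.77, SE 0.13, adjusted p = 0.0283), with Bai1 Tg neg reaching from 70.9 to 116.6 CPM.

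Gdpd2 (chromosome X, 100729873 to 100738895, plus strand), a glycerophosphodiester phosphodiesterase, stood at 16.6, 13.7, 18.2 and 10.9 CPM in Mertk KO libraries and 29.1, 32.1, 24.5 and 25.4 CPM in Mertk WT (-0.91, SE 0.16, adjusted p = 0.038, edgeR). Bai1 Tg neg 1 was at 14.7 CPM, and even the highest Bai1 Tg neg library, at 23.35 CPM, stayed short of the Mertk WT range. Gdpd2 shares 799 exon bases with the antisense gene model Gm14866. That model was at no more than 0.418 CPM in any Mertk library, and the sum of both kept the call (-0.91, adjusted p = 0.0384). These 3 calls depended on single libraries: Stox1 was lost without Mertk KO 2, KO 4 or WT 3 (adjusted p 0.0576 to 0.0794), Shisal1 in 6 of the 8 fits that left out 1 library (all but those without Mertk KO 3 or WT 3; highest 0.145, without Mertk KO 2) and Gdpd2 in 7 of 8 (all but that without Mertk KO 3; highest 0.203, without Mertk KO 2). With the rod marker level as a covariate Shisal1 did not pass (0.075), and without both Mertk WT 2 and WT 3 Gdpd2 did not (0.111).

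Among genes at low level, Cd300lf, Fhdc1 and the long noncoding RNA gene 2900052N01Rik fell by more. Cd300lf (chromosome 11, 115116214 to 115133992, minus strand) encodes an immune receptor that binds PtdSer and other lipids. It was at 1.12, 1.61, 1.11 and 0.944 CPM in Mertk KO libraries and 4.53, 6.72, 3.13 and 6.05 CPM in Mertk WT (77 against 297 counts), with all 7 Bai1 libraries between 3.89 and 8.99 CPM. The highest Mertk KO library stood below the lowest of the other 11, with a log2 fold change of -2.10 (edgeR SE 0.31, adjusted p = 0.013). A stretch of 344 bases is 95.1% identical to Cd300ld, which held 0 counts in the Mertk libraries, so the sum was the same. The span of Cd300lf overlaps Rab37, on the opposite strand, over 17779 bases, with 0 shared exon bases. Counts were made without strand, and the part of Rab37 intron reads in the Cd300lf counts was not tested. The listed macrophage and microglia genes off chromosome 2, tested or too low, summed to 704 to 782 CPM in Mertk KO libraries. In Mertk WT they summed to 676 to 752 CPM, and in both groups most of the sum was Csf1r. Ptprc, a pan-leukocyte gene, was at 0.104 CPM or less. The part of immune cells in the Cd300lf result was not tested. Limma-voom did not call Cd300lf (0.0855). Leaving out Mertk KO 1, KO 3, KO 4 or WT 4 ended the Cd300lf call (0.0566 to 0.0709).

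Fhdc1 (chromosome 3, 84442198 to 84480429, minus strand), a formin that acts on actin and microtubules, stood at 2.98, 4.96, 3.53 and 2.30 CPM in Mertk KO libraries and 11.2, 10.01, 7.86 and 7.20 CPM in Mertk WT (-1.41, SE 0.25, adjusted p = 0.038, edgeR). Every Bai1 library, at 6.54 to 9.33 CPM, lay above Mertk KO. 2900052N01Rik (chromosome 9, 46913493 to 46927366, plus strand) was at 8.88, 6.43, 6.504 and 7.61 CPM in Mertk KO libraries and 15.3, 26.6, 11.9 and 20.5 CPM in Mertk WT (-1.33, SE 0.23, adjusted p = 0.0405), and its Bai1 libraries, with means of 16.7 ± 1.40 CPM (SD, n = 3) for Bai1 Tg pos and 13.3 ± 2.54 CPM (SD, n = 4) for Bai1 Tg neg, were likewise all above Mertk KO. Both calls were the least steady of the 12, each lost in 11 of 20 alternatives. Of the fits without 1 library, 7 of 8 lost Fhdc1 (all but that without Mertk KO 2; highest adjusted p 0.133, without Mertk KO 1) and 6 of 8 lost 2900052N01Rik (all but those without Mertk WT 2 or WT 3; highest 0.227, without Mertk KO 2). With the rod marker level as a covariate 2900052N01Rik was at 0.118, and without both Mertk WT 2 and WT 3 Fhdc1 was at 0.127. Limma-voom called neither (0.0634 for Fhdc1, 0.151 for 2900052N01Rik).

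**Figure D2:**
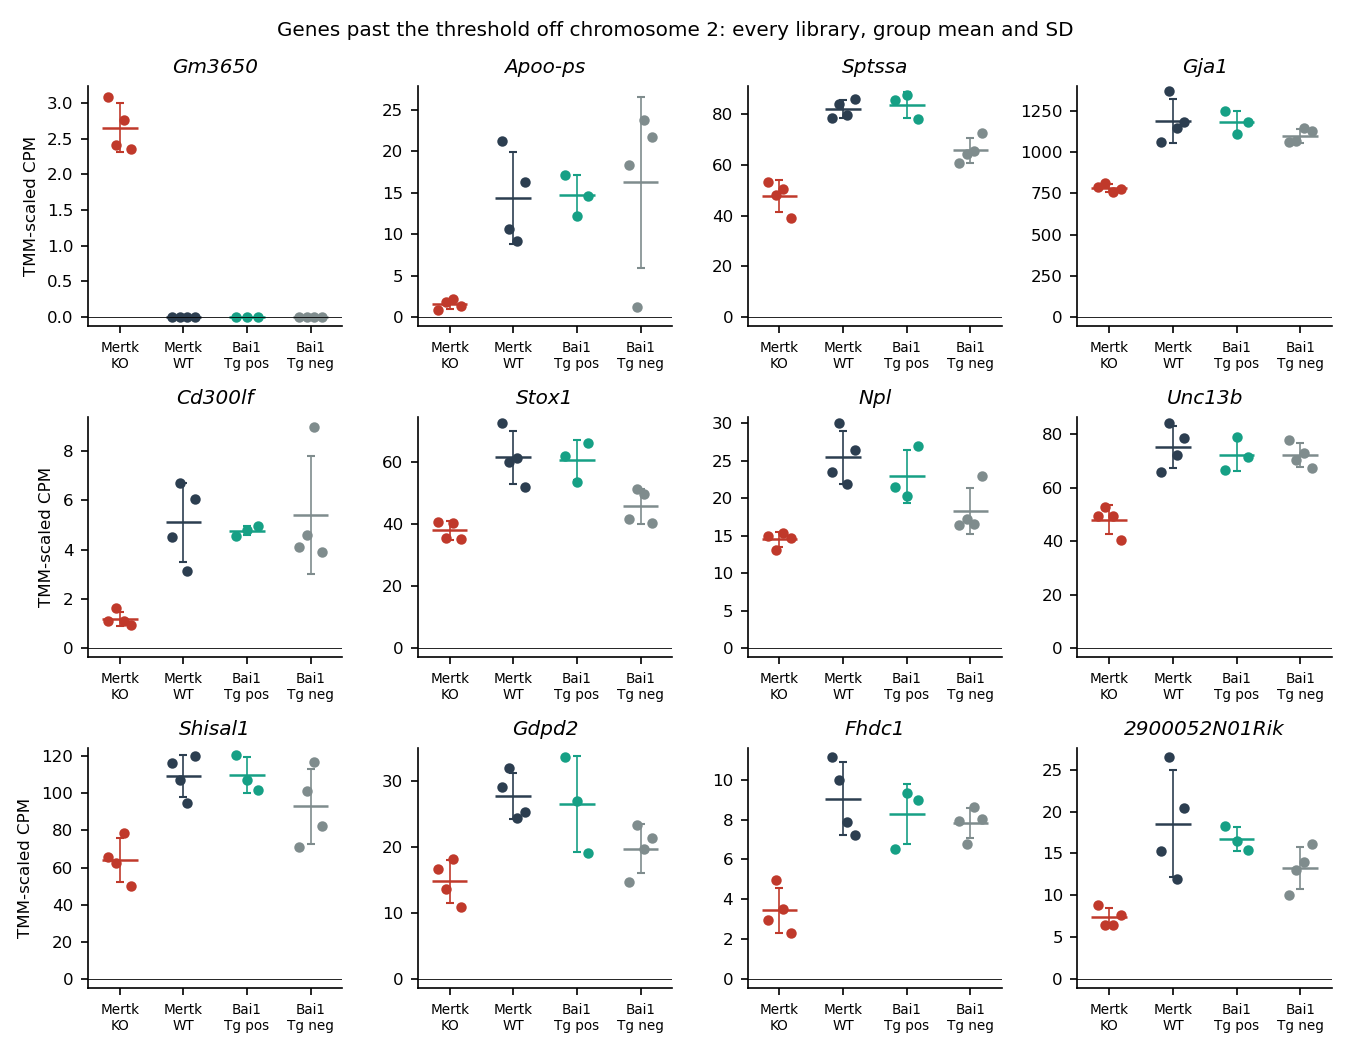
Level in TMM-scaled CPM (y axis, from 0) of each of the 12 genes off chromosome 2 past the threshold, by group (x axis); each point is a library, and lines mark the group mean with its SD. In each panel the 4 Mertk KO points and the 4 Mertk WT points do not overlap, and in the Apoo-ps panel 1 Bai1 Tg neg point, at 1.18 CPM, lies with the Mertk KO points.

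Apoo-ps (chromosome 13, 107413865 to 107414767, minus strand) is a pseudogene of Apoo, an X-linked gene for a protein of mitochondrial cristae, and its reads cannot be assigned with certainty. It was at 0.904, 1.88, 2.15 and 1.36 CPM in Mertk KO libraries and 21.3, 10.7, 9.20 and 16.3 CPM in Mertk WT (-3.20, SE 0.33, adjusted p = 0.00134, edgeR). The difference was large, but Bai1 Tg neg 2 stood at 1.18 CPM while the other Bai1 Tg neg libraries were at 18.4 to 23.8 CPM, and with all 15 libraries in the fit the call was lost (adjusted p = 0.151). The whole GENCODE M21 transcript of Apoo-ps, 586 bases, is found letter for letter in an Apoo transcript. Counts of Apoo-ps were made over 903 bases, and bases outside that transcript were not compared with Apoo. A coding stretch of 60 bases is shown because reads from it match both genes, with 0 mismatches.
Apoo-ps: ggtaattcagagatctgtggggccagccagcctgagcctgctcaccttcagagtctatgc
Apoo: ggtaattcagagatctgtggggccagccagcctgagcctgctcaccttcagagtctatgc
Apoo itself was at 21.8 ± 2.54 CPM in Mertk KO libraries and 12.96 ± 4.54 CPM in Mertk WT (SD, n = 4 each; log2 fold change 0.74, adjusted p = 0.48, edgeR), and the summed counts of the pair gave -0.23 (SE 0.13, adjusted p = 0.905).

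The single gene that rose also has near-identical copies, in its case on chromosome 2, the chromosome set aside here. These are Spg11 (122053520 to 122118386) and Eif3j1 (122028546 to 122056598), where Mertk lies at 128698956 to 128802894. The part of reads from these copies in the counts of the gene that rose was not tested. Gm3650 (chromosome 18, 43472816 to 43475169, plus strand) held 58, 36, 40 and 40 counts in Mertk KO and 0 in each Mertk WT and Bai1 library, where 3 counts correspond to 0.162 to 0.313 CPM in the Mertk libraries. Its 747 bases match Spg11, a gene of lysosome reformation, at 99.9% identity, and 181 bases match the translation factor gene Eif3j1 at 100%. Alone, Eif3j1 was past the threshold and lower, at 2.24 against 9.11 CPM (log2 fold change -2.01, adjusted p = 0.0214, edgeR). Spg11 alone was at 56.3 against 71.2 CPM (-0.34, adjusted p = 0.356), with groups that did not overlap. Summed with Spg11 the log2 fold change of Gm3650 was -0.28 (edgeR SE 0.091) and summed with Eif3j1 -0.89 (SE 0.22), and neither sum passed the threshold. In the main edgeR fit no gene off chromosome 2 without such a copy rose past the threshold, where 282 genes were higher at an unadjusted p under 0.05. DESeq2 called 15 higher, and edgeR without the low-count filter 13.

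Next in rank came 10 higher and 10 lower named genes that did not pass, with adjusted p from 0.064 to 0.267 (edgeR). Groups did not overlap for any of the 20, which were chosen by their small p, where the share over all tested genes was 3.27%. Elovl1, an elongase of very long fatty acids, was at 284 ± 45.3 CPM in Mertk KO libraries and 194 ± 20.1 CPM in Mertk WT (SD, n = 4 each; log2 fold change 0.55, adjusted p = 0.101). Fads2, the delta-6 desaturase of polyunsaturated fatty acids, was at 370 ± 26.9 against 488 ± 25.1 CPM (-0.40, adjusted p = 0.0741). Cyp27a1, a sterol 27-hydroxylase, was at 35.1 ± 1.77 against 53.8 ± 9.51 CPM (-0.62, adjusted p = 0.0746). All 3 passed with DESeq2 (adjusted p 0.00191, 0.000715 and 0.00228) and with all 15 libraries in the edgeR fit (0.00623, 0.0051 and 0.0371). Limma-voom called none of the 3.

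Slc4a4, the sodium bicarbonate cotransporter NBCe1, was at 34.9 ± 3.503 CPM in Mertk KO libraries and 53.6 ± 8.59 CPM in Mertk WT (-0.62, adjusted p = 0.0834, edgeR), and Ano1, a calcium-activated chloride channel, at 2.35 ± 0.560 against 6.72 ± 2.96 CPM (-1.51, adjusted p = 0.114). On the higher side, Cacna1c, an L-type calcium channel subunit, was at 63.6 ± 7.58 against 48.4 ± 1.75 CPM (0.39, adjusted p = 0.267). Plxna1, a semaphorin receptor, was at 398 ± 36.1 against 287 ± 32.4 CPM (0.47, adjusted p = 0.112), and Igfbp5, a secreted binder of insulin-like growth factors, at 1154 ± 114 against 1527 ± 131 CPM (-0.41, adjusted p = 0.13). Mki67, a proliferation marker, was very low at 0.345 ± 0.113 against 2.51 ± 1.76 CPM (-2.83, adjusted p = 0.064).

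Igfbp2 and Sh3gl2 did not pass in the edgeR fit of all 8 libraries but passed with DESeq2. Igfbp2, also a binder of insulin-like growth factors, stood at 156 ± 48.3 CPM in Mertk KO libraries and 69.8 ± 12.7 CPM in Mertk WT (log2 fold change 1.16, 95% interval 0.60 to 1.73). Its adjusted p was 0.28 with edgeR and 3.33e-06 with DESeq2, and the Mertk KO libraries ranged widely, from 100.1 to 204.9 CPM. Sh3gl2, encoding endophilin A1 of membrane curvature, was at 32.8 ± 7.14 against 67.8 ± 16.5 CPM (-1.05), with an adjusted p of 0.13 with edgeR, 0.0475 with limma-voom and 1.86e-05 with DESeq2. In other edgeR fits Igfbp2 passed without Mertk KO 1 (0.04), and Sh3gl2 with the rod marker level as a covariate (0.0497).

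**Figure D3:**
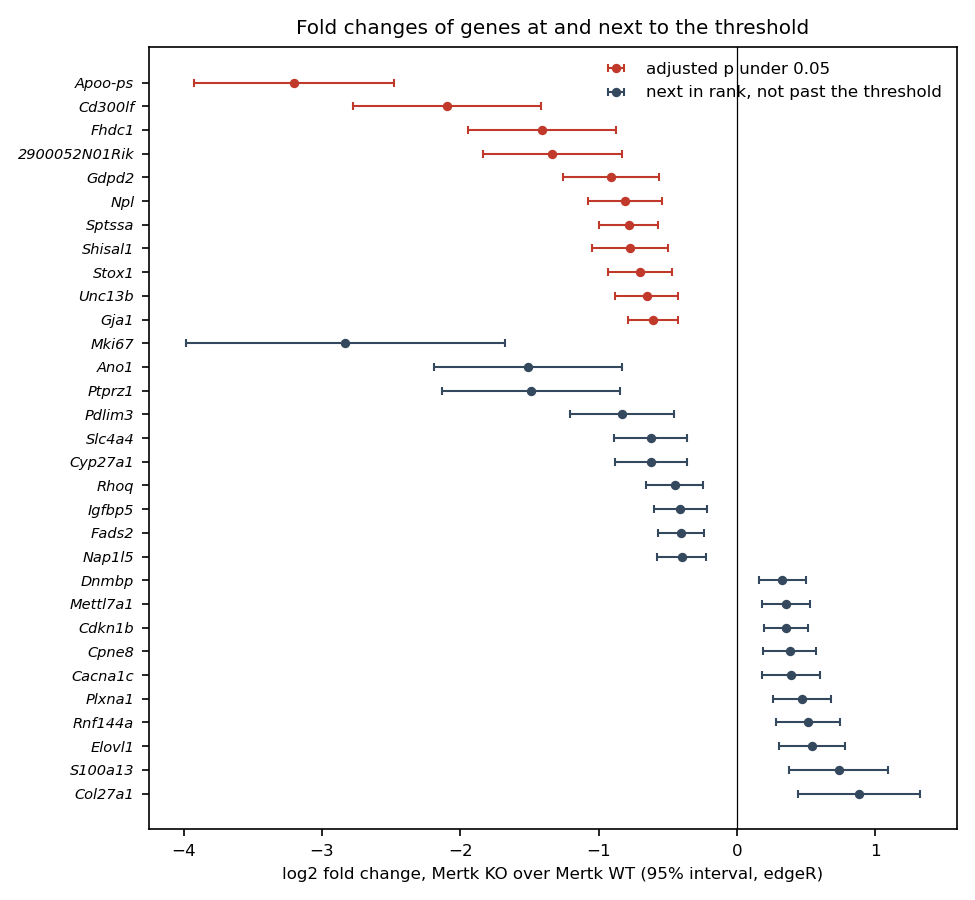
Fold change on the log2 scale (Mertk KO divided by Mertk WT) with its 95% interval (x axis, edgeR) for 11 genes past the threshold (red; Gm3650, with 0 counts in Mertk WT, is left out) and the 20 genes next in rank (blue). Red intervals all lie below 0; the blue ones lie on either side and exclude 0 singly, without passing the adjusted threshold.

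Genes of outer segment clearance showed few differences, and most were bounded within 1.5-fold. Gene lists, 37 in all, held 919 distinct tested genes off chromosome 2, of which 3 passed (Cd300lf, Sptssa and Gja1, all lower) and 634 (69.0%) had a narrow interval, against 63.7% of all tested genes. At an unadjusted p under 0.05 there were 79 of the 919 list genes, a larger share than the 645 of 12369 (5.21%) over all tested genes. The lists were chosen with earlier results of these data known. DESeq2 called 9 list genes and limma-voom 2. Of 37 engulfment signalling and actin genes 0 passed, 2 had an unadjusted p under 0.05, 34 had narrow intervals and the median log2 fold change was 0.02, where the median over all tested genes was 0.00. Myo7a, the myosin that moves phagosomes and melanosomes in this epithelium, had 446 ± 19.9 CPM in Mertk KO libraries and 423 ± 39.8 CPM in Mertk WT (95% interval of the log2 fold change -0.11 to 0.25). Ezr, the microvillar linker ezrin, had an interval of -0.10 to 0.29. In autophagy and LC3-associated phagocytosis 0 of 28 passed, 0 had an unadjusted p under 0.05 and 27 were narrow (median 0.02), and among lysosome genes 0 of 49 passed, 3 had an unadjusted p under 0.05 and 47 were narrow (median -0.01). Ctsd, the main protease that digests outer segment protein, was at 8669.8 ± 487 against 8811 ± 686 CPM (interval -0.19 to 0.13).

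Receptors and bridging proteins for PtdSer held 1 lower gene, Cd300lf, and 0 higher among 19 tested, 14 of them with narrow intervals (median -0.03). A further 14 listed genes were too low to test and 5 lie on chromosome 2. The integrin subunit Itgb5, which binds outer segments through MFGE8, was at 358 ± 21.3 CPM in Mertk KO libraries and 325 ± 51.1 CPM in Mertk WT, and its interval of -0.09 to 0.36 excluded a fall of any size beyond 0.09 on the log2 scale. Mfge8 (interval -0.01 to 0.35), Gas6 (-0.41 to 0.05) and Lrp1, a large scavenger and PtdSer-bridging receptor (-0.06 to 0.39), were bounded to a similar degree. Axl, the TAM receptor kinase related to MERTK, was low at 5.69 ± 2.07 against 4.34 ± 0.586 CPM, and its interval was wide, -0.20 to 0.95.

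Specialised RPE functions held no gene past the threshold with edgeR. The visual cycle (0 of 22, 1 at an unadjusted p under 0.05, median -0.05), melanin and melanosome genes (0 of 32, 5 so, median 0.06) and transcription factors of RPE identity (0 of 22, 0 so, median 0.03) were centred near 0. Rpe65, the retinoid isomerase, was at 4549 ± 257 against 5356 ± 968 CPM (interval -0.48 to 0.00), and Otx2, a regulator of RPE fate, had an interval of -0.22 to 0.15. In ion and water transport 22 of 28 genes were below 0 with a median of -0.14, and 6 had an unadjusted p under 0.05. Over all tested genes 49.9% were above 0 and 5.21% had such a p. Of the 28, 0 passed, although Slc4a4 passed with DESeq2 (0.00234), with all 15 libraries in the edgeR fit (0.0409) and with the rod level as a covariate (0.028). The median of this list was -0.08 without Mertk WT 2 and -0.09 without Mertk WT 4 or with the rod level as a covariate. Below 0 were Slc4a4, Car12, a carbonic anhydrase (-0.19), Atp1b1, a sodium pump subunit (-0.23), Kcnj13, the apical potassium channel Kir7.1 (-0.33) and Aqp1, a water channel (-0.57). Among the 6 above 0 were Slc12a2 (0.01), Trpv4 (0.13), Atp1b3 (0.14), Slc4a2 (0.15) and Cacna1d (0.18).

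No other tested gene of the sphingolipid and gap junction lists passed beside Sptssa and Gja1. Sptssa was the 1 gene of 36 in sphingolipid synthesis and breakdown that passed, and 30 of the 36 had narrow intervals (median -0.01). Sptlc1 and Sptlc2, the catalytic subunits that Sptssa joins, were at 57.7 ± 3.35 against 60.0 ± 6.68 CPM (log2 fold change -0.06) and 106.5 ± 8.22 against 103.5 ± 8.61 CPM (0.04). Ormdl3, an inhibitor of the same enzyme, had a log2 fold change of 0.01 with an interval of -0.19 to 0.20. Gja1 was the 1 of 9 gap junction genes that passed, and of the others Gjc1, connexin 45, was at 10.1 ± 0.637 against 8.27 ± 1.26 CPM (0.28, adjusted p = 0.905, edgeR). Tjp1, the scaffold ZO-1, was at 89.8 ± 4.31 against 90.9 ± 6.83 CPM (interval -0.19 to 0.15).

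In the metabolic lists no gene passed, and most genes had narrow intervals, as did 88.5% of all tested genes from 10 to 100 CPM. In fatty acid oxidation and ketogenesis 36 of 37 genes had narrow intervals and 0 passed or had an unadjusted p under 0.05 (median -0.04). Nuclear genes of the respiratory complexes were narrow in 48 of 52 (median 0.03), and glucose and lactate handling in 34 of 39 (median -0.02). Slc2a1, the glucose transporter GLUT1, had an interval of -0.34 to 0.03 and Slc16a1, the lactate transporter MCT1, was at 1163 ± 47.6 against 1367 ± 118 CPM with groups that did not overlap (-0.24, adjusted p = 0.579, edgeR). Cholesterol genes were narrow in 26 of 38 and at a median of 0.06, with 0 passing (3 at an unadjusted p under 0.05; DESeq2 called Cyp27a1). Cytosolic ribosomal protein genes were above 0 in 57 of 70, at a median of 0.11, where 49.9% of all tested genes were above 0. Of the 70, 6 had an unadjusted p under 0.05, as did 5.21% of all tested genes, and 0 were past the threshold.

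Stress and immune lists held no gene past the threshold and differed in how tightly they were bounded. Endoplasmic reticulum stress and amino acid response genes were narrow in 34 of 39 (median -0.05, 4 at an unadjusted p under 0.05) and antioxidant enzymes in 28 of 37 (median -0.01, 5 so). Among 31 interferon-stimulated genes Bst2, the antiviral tetherin, had the smallest p, at 15.8 ± 1.98 against 9.36 ± 2.68 CPM (0.75, adjusted p = 0.338, edgeR; 0.0324 without the low-count filter). Complement genes were narrow in only 3 of 10. Vtn, which encodes vitronectin, was at 43.5 ± 2.53 against 59.6 ± 9.05 CPM (-0.46, adjusted p = 0.224 with edgeR, 0.0491 with DESeq2). All 7 Bai1 libraries, with wild-type Mertk by their titles, were at 29.1 to 43.4 CPM for Vtn, within or below the Mertk KO range of 41.1 to 46.0 CPM. Immediate early genes, which respond to handling within minutes, were narrow in 2 of 32. Jun ranged from 1054 to 2551 CPM within Mertk KO alone, so a change of this class could not be judged.

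**Figure D4:**
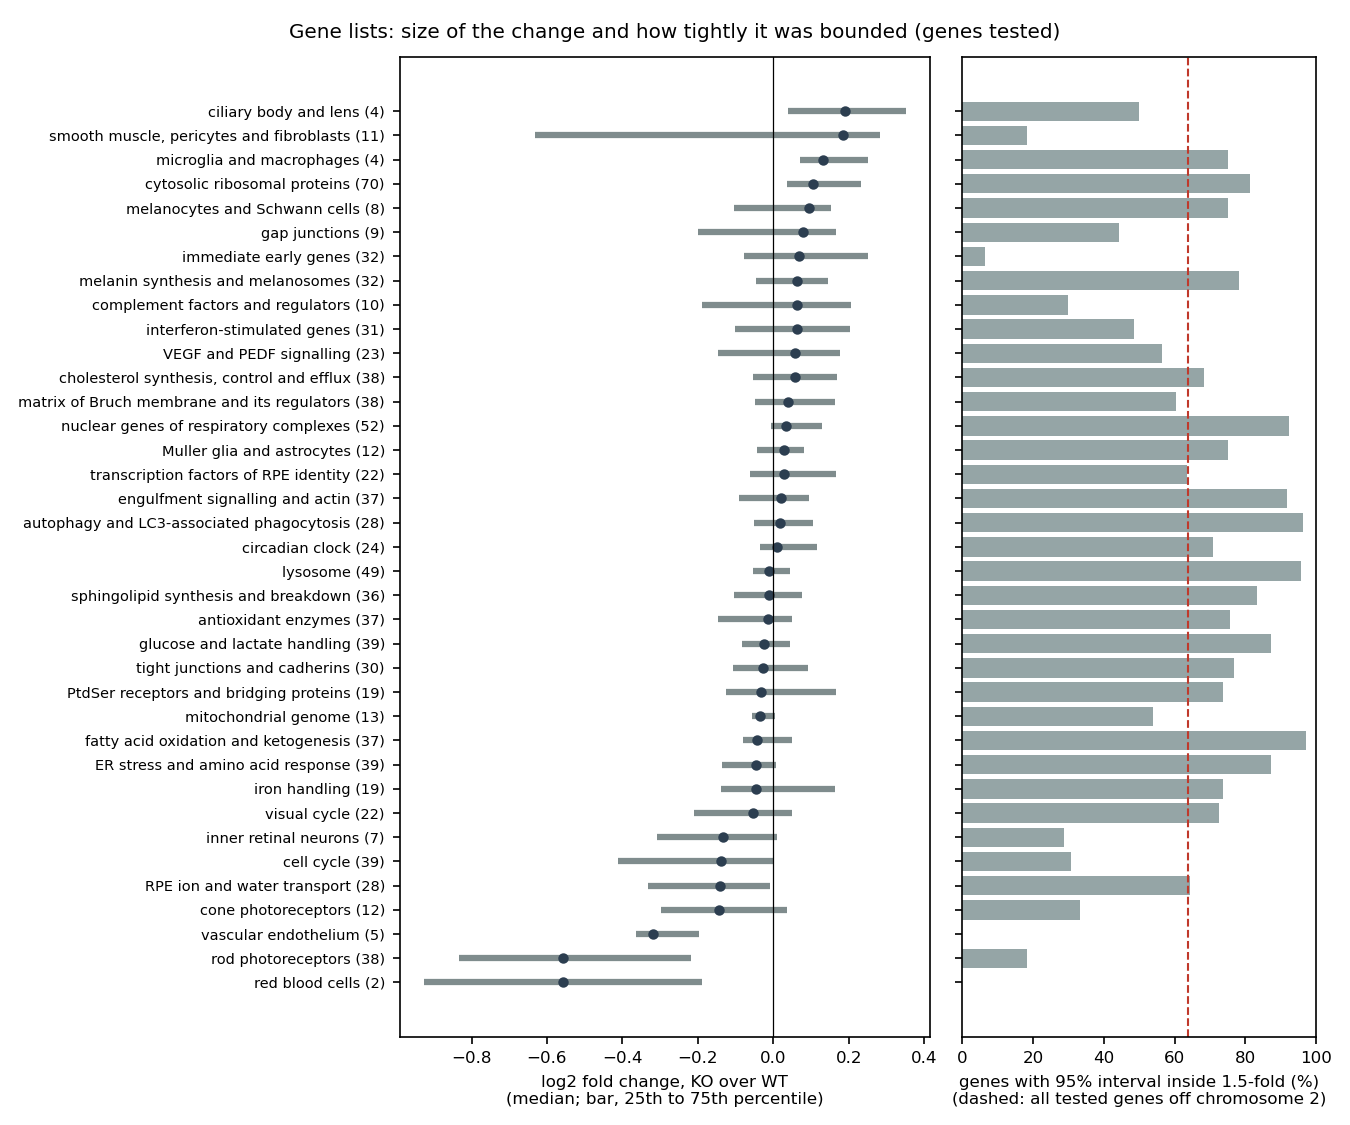
For each of 37 gene lists (number of tested genes in brackets), the median log2 fold change, positive where Mertk KO is higher, with a bar from the 25th to the 75th percentile (left), and the percentage of its genes with a narrow interval (right), the dashed line marking 63.7% for all tested genes. Most medians, 26 of 37, lie within 0.1 of 0, and the lists far below 0 also have short bars on the right.

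Rod, endothelial and cell cycle genes lay mostly below 0 in Mertk KO, and none passed in the main edgeR fit. Over all tested genes 49.9% were above 0 and 5.21% had an unadjusted p under 0.05. Rod genes were below 0 in 35 of 38, at a median of -0.56, with 0 past the threshold, 3 at an unadjusted p under 0.05 and 7 of 38 narrow. Their summed level was 4597 to 5489 CPM in Mertk KO libraries and 4575 to 8560 CPM in Mertk WT, so the ranges overlapped. The rod median rested on 2 libraries: it was -0.19 without Mertk WT 2, -0.43 without Mertk WT 3, and 0.47 without both, the Mertk WT libraries of highest rod level. With the rod level as a covariate 13 genes passed off chromosome 2, 10 of them among the 12 named above, and without Mertk WT 2 and WT 3 17 passed, 9 of them among the 12. Endothelial markers were below 0 in 5 of 5 tested (median -0.32), while 13 more of the list were too low to test and 2 lie on chromosome 2. Listed endothelial genes off chromosome 2, tested or too low, summed to 109.3 to 179.2 CPM in Mertk KO libraries and 139.5 to 225.2 CPM in Mertk WT. Pecam1, Cdh5 and Tek were never above 1.46 CPM. The endothelial median was -0.08 without Mertk KO 2, -0.13 without Mertk WT 1 and -0.21 without Mertk WT 4. It was -0.435 without Mertk KO 1 and -0.508 without both Mertk WT 2 and WT 3. Cell cycle genes were below 0 in 29 of 39 (median -0.14, and -0.08 without Mertk KO 4 or -0.21 without Mertk KO 3 or WT 3). Of the 39, 12 were narrow and 9 had an unadjusted p under 0.05, a larger share than the 5.21% of all tested genes. Groups did not overlap for 7 of the 39, where the share over all tested genes was 3.27%. DESeq2 called Mki67 and Cdkn1b. Among the cell cycle genes Rrm2 and Plk1 averaged under 2 CPM in both groups. Rrm2, at 0.381 against 1.82 CPM, passed with edgeR without the low-count filter (log2 fold change -2.25, adjusted p = 0.0445). Mki67 passed there too (0.000599) and with all 15 libraries in the edgeR fit (0.0176). Cdkn1b, the inhibitor p27, was higher, at 159.5 ± 5.15 against 124.3 ± 8.63 CPM (0.36, adjusted p = 0.114, edgeR). It passed with all 15 libraries in the fit (0.0154). For Cdkn1b every Bai1 library, at 140.7 to 162.3 CPM, stood above every Mertk WT library, the highest of which was at 134.1 CPM. The part of vessels or dividing cells in the calls was not tested.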

How the data were processed

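RNA was sequenced from RPE of 15 mouse samples. Per the labels' protocols, poly-A RNA was made into TruSeq libraries. Alignment used STAR and the GRCm38 build, per the submitters' processing notes. The deposited values are raw counts that the authors made with featureCounts 1.5.0 on fragments, without strand, per the file headers; reads of genes that overlap on opposite strands cannot be told apart. No source used here names the annotation release. Symbols were matched by Ensembl identifier for 45143 of 46078 genes (99.91% of counts). No column was left unmapped.

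The 4 Mertk KO and 4 Mertk WT libraries were fitted with edgeR 4.0.16 in R 4.3.3: filterByExpr, TMM factors, robust quasi-likelihood F test, two-sided, Benjamini-Hochberg adjustment over all 13447 tested genes, threshold 0.05. Intervals are at 95%, with SEs derived from the F statistic. No pair of libraries was alike within sampling noise (lowest chi-square per degree of freedom 5.03). Floors of 3 counts cover counting error only. Alternatives used DESeq2 1.42.0, limma 3.58.1, other scalings and filters, covariates, the replicate number as a block and leaving out each library. Near-identical copies (at least 95% identity over 150 bases) were sought with blastn 2.17.0 in GENCODE M21 transcripts; summing copies and leaving out the 2 Mertk WT libraries of highest rod level were chosen after seeing the data. The scripts were tested on simulated data.

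Genes and lists were chosen with earlier results of these data known. Named were genes past the threshold, the 10 higher and 10 lower named genes next in rank, up to 8 called only by another tool, near-identical copies, and of each list the gene of smallest p and the 2 most abundant, plus Axl, Gas6, Mfge8, Itgav and Itgb5. Other genes were named after their values were seen: the tissue markers and Car12, Atp1b1, Kcnj13, Aqp1, Slc12a2, Trpv4, Atp1b3, Slc4a2, Cacna1d, Sptlc1, Sptlc2, Ormdl3, Gjc1, Tjp1, Rpe65, Rrm2 and Plk1. The values of some single genes that the rule names are not reported here.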

Additional observations from a re-analysis of the deposited data

Results flagged for a closer look

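Of 64 groups of 4 libraries examined among the named genes off chromosome 2, 3 (4.69%) held a library far from the rest. Chance flags about 1 in 20 groups of genes not chosen by their p, whereas the 3 genes below were chosen by small p. For S100a13, Mertk KO 1 was lowest at 8.51 CPM, where the other Mertk KO libraries were at 11.7 to 11.9 CPM. For Fads2, Mertk KO 4 was lowest at 329.7 CPM, against 382.2 to 385.0 CPM in the others. For Ano1, Mertk KO 3 was highest at 3.18 CPM, against 2.01 to 2.13 CPM. In each case the library lay on the Mertk KO side of every Mertk WT library. That followed from the choice of genes, since groups did not overlap for any of the 20 genes next in rank.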

How the results depend on the processing

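Against 12 genes off chromosome 2, DESeq2 gave 51, no low-count filter 44, all 15 libraries in 1 fit 24, and adjustment over genes off chromosome 2 alone 7; leaving out 1 library gave 4 (without Mertk KO 4) to 11. Other size factors gave 12, at least 10 counts in every library 11, and leaving out both Mertk WT 2 and WT 3, the Mertk WT libraries of highest rod level, gave 17. Narrow intervals held for 7177 to 8092 genes across the settings. The replicate numbers did not pair the libraries (correlations of same-numbered deviations -0.115, -0.03, 0.151 and 0.236); with the replicate block 9 genes passed, 6 of them among the 12. Gm3650 changed direction when summed with its copies (log2 fold change -0.277 with Spg11, -0.893 with Eif3j1), by the construction of the sum; the cause of the other shifts was not tested. Sptssa and Gja1 kept their calls in 20 of 20 alternatives, Gm3650 in 19 of 19 and Apoo-ps in 19 of 20, while Fhdc1 and 2900052N01Rik kept theirs in 9. No list median changed sign under another scaling, but 19 of 37 did under at least 1 alternative, 14 of these lying within 0.1 of 0 to begin with; the median of smooth muscle, pericyte and fibroblast genes went from 0.18 to -0.64 without Mertk KO 3, and that of immediate early genes from 0.07 to -0.30 without the same library. Depth limits genes under 10 CPM most, where few intervals were narrow.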
